A study of Mus musculus with 6 samples.

Results

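Heat shock proteins are chaperones, which hold unfolded proteins in solution, fold them or pass them on for destruction. Members of the HSP70 family bind short greasy stretches of a client protein and are driven by J-domain partners and by nucleotide exchange factors, while HSP90 proteins finish the folding of kinases and steroid receptors. The heat shock factor HSF1 is held inactive in unstressed cells and, on heat or other protein-damaging stress, binds inverted repeats of a short motif upstream of these genes and raises their transcription. In mouse, Hspa1a and Hspa1b are the strongly inducible HSP70 genes, whereas Hspa8 and Hsp90ab1 are abundant without stress. Members described here are 10 genes chosen by symbol: Hspa1a, Hspa1b, Hspa8, Hsph1, Hsp90aa1, Hsp90ab1, Dnajb1, Dnaja1, Hspd1 and Hspe1. All 10 were found among the 33924 genes of the deposited count table, and all 10 were among the 15708 genes expressed highly enough to be tested.

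Mouse bone marrow from which beads had removed lineage-marked cells was profiled by RNA sequencing, in 3 libraries labelled Stag2KO and 3 labelled Stag2WT. The product of Stag2 belongs to the cohesin ring, and the series is about cohesin in blood stem cells. Genotype is the only difference that the labels name. The sources used here state neither the allele, the way the gene was deleted, nor the age and sex of the mice. They do not say either that each library is from its own animal, and p-values therefore measure only the spread between these samples, which may be technical.

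Libraries held 29435651 to 37722325 gene reads. Stag2 itself stood at 169, 187 and 183 CPM (reads of a gene relative to all gene reads, on library sizes adjusted by TMM) in Stag2KO replicates 1, 2 and 3, against 338, 329 and 324 CPM in Stag2WT replicates 1, 2 and 3, a log2 fold change of -0.88 (adjusted p = 0.000278, edgeR's quasi-likelihood test). Reads outside annotated genes came to 11.7% ± 0.984 in Stag2KO, against 9.24% ± 0.725 in Stag2WT (SD, n = 3 each; two-sided exact permutation p = 0.1, the smallest that 3 against 3 samples allow). By the same test, at an adjusted p under 0.05, 10.5% of all tested genes were lower in Stag2KO and 10.7% higher. All 6 progenitor markers of granulocytes were tested, and 5 were higher in Stag2KO. Of 8 stem and progenitor markers 4 were higher, of 9 erythroid markers 4 were lower, and 9 of 9 macrophage markers found in the table were lower. The summed macrophage markers ran from 275 to 394 CPM in Stag2KO and from 1001 to 1118 CPM in Stag2WT, and the summed erythroid markers from 2304 to 2929 CPM in Stag2KO and from 2973 to 5105 CPM in Stag2WT. Stroma markers (7 of 7 lower) summed to 61.5 to 116 CPM in Stag2KO and 229 to 247 CPM in Stag2WT, B cell markers (6 of 7 lower) to 852 to 1113 CPM in Stag2KO and 936 to 2593 CPM in Stag2WT, and T cell markers (4 of 5 lower) to 12.9 to 20.1 CPM in Stag2KO and 30.2 to 52.5 CPM in Stag2WT. Most of the B cell sum was Ighm, the B cell marker not called, which held 786 to 1038 CPM in Stag2KO and 778 to 2348 CPM in Stag2WT. Eosinophil markers (4 of 5) and megakaryocyte markers (2 of 6) were higher in Stag2KO, and 0 of 9 markers of mature neutrophils were called. No marker found in the table was at 0 throughout. The part of these markers, and of the reads outside genes, in the chaperone values was not tested. In a bulk sample, fewer cells of a type and less RNA per cell cannot be told apart.

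Heat shock factors bind inverted repeats of a short unit, and the promoters of the members were searched for it. RefSeq promoter windows (GRCm38.p6, 250 bases before to 50 after a start) were matched by symbol for 7 of the 10 members, and were searched for paired units GAANNTTC or TTCNNGAA, each of which reads the same on both strands. Hspa1a (chr17:34972157-34972306, minus strand) and Hspa1b (chr17:34959239-34959388, minus strand) are shown over the 150 bases before their starts, because they are the most inducible members. Shorter 30-base stretches are shown for Hspe1 (chr1:55088053-55088082, plus strand), whose motif lies between the starts of Hspe1 and Hspd1, for Hsph1 (chr5:149636351-149636380, minus strand) and for Dnaja1 (chr4:40722333-40722362, plus strand). Capitals mark matches to either paired unit.
Hspa1a: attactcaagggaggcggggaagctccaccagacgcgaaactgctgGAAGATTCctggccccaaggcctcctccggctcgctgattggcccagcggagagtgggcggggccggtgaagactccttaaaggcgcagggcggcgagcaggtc
Hspa1b: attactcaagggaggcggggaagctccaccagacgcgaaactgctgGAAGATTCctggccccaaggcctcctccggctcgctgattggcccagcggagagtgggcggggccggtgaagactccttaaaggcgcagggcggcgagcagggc
Hspe1: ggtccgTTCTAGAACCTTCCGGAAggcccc
Hsph1: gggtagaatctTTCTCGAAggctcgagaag
Dnaja1: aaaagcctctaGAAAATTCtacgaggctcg

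The windows of Hspa1a and Hspa1b differed at 1 of these 150 bases and at 3 of 250 bases before the start, and the single paired unit, at positions -104 to -97, was the same in both. Hspe1 carried the densest run, with 3 overlapping paired units at positions -89 to -72 from its start. The same run lies at -144 to -127 from a start of Hspd1 on the other strand, since the 2 genes are transcribed away from each other. Hsph1 had a paired unit before the start and a pair of overlapping units after it, and Dnaja1 had 1 unit at -124 to -117. No match was found in the windows of Dnajb1, which says only that these letters are not there. In all, 6 of 7 members had a paired unit and 3 of 7 a run of 3 alternating units, GAA and TTC by turns with 2 free bases between them, which contains the paired units. These 7 members are not independent cases, since Hspe1 and Hspd1 were counted on the same run and the windows of Hspa1a and Hspa1b are near copies. Across 27025 genes with a window, 17.0% had a paired unit and 0.662% a run of 3. Of the lists described below, 5 of 21 cytosolic co-chaperones and 4 of 8 small heat shock proteins had a paired unit. So did 2 of 9 genes of the stress list, 4 of 24 other J-domain genes and 2 of 15 immediate early genes. The counts were 1 of 11 for the mitochondrial list, 1 of 19 for the endoplasmic reticulum list and 0 of 7 for other HSP70 and HSP110 genes. A match is a description and not a measured site.

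**Figure D1:**
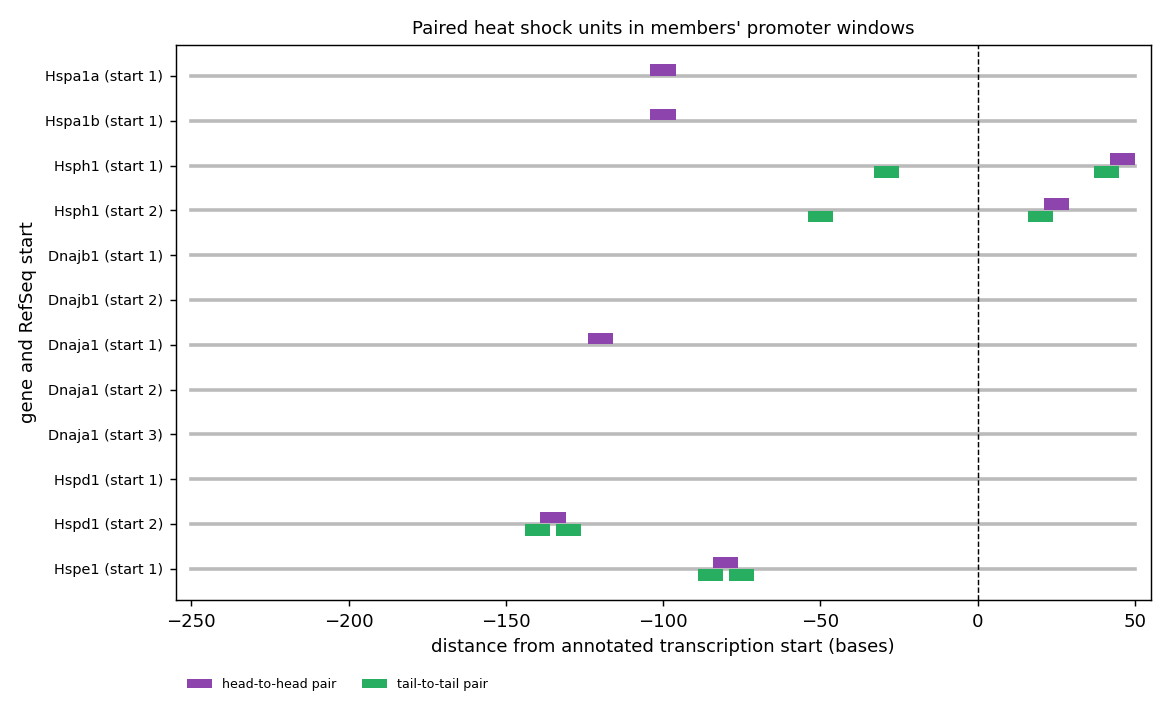
Positions of paired heat shock units in the promoter windows of 7 members, 1 line per RefSeq start; the x axis is the distance from the annotated start in bases, with head-to-head pairs (GAANNTTC) above the line and tail-to-tail pairs (TTCNNGAA) below it. Hspa1a and Hspa1b carry their unit at -104 to -97, Hspe1 has 3 overlapping units at -89 to -72, and Dnajb1 has none.

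Every member was lower on average in Stag2KO, and the member libraries did not spread evenly: Stag2WT replicate 2 was the highest of all 6 libraries for 9 of 10 members and for 26.9% of all tested genes. Hspa8, Hsp90aa1, Hspd1 and Hspe1 fell by the test, with adjusted p from 0.00624 to 0.0387 by edgeR's quasi-likelihood test over 15708 genes, and the other 6 did not pass it. Lower calls made up 10.5% of all tested genes. None of the members was called higher, against 10.7% of all genes. None was higher at an unadjusted p under 0.05 either, and DESeq2 and limma-voom called 0 higher. At that unadjusted level 2922 of the 15708 tested genes were higher and 2912 lower, which is the background for the lists below as well. The median log2 fold change of the members was -0.94, beside 0.01 over all tested genes. All 3 Stag2KO libraries lay below all 3 Stag2WT libraries for 7 members, an arrangement found in 21.2% of all genes, and the opposite one, found in 22.2% of all genes, held for 0 members. Summed over the members, the libraries held 5100.3, 5199 and 5418 CPM in Stag2KO and 6411, 10107 and 7946 CPM in Stag2WT, so 64.2% of the Stag2WT mean remained.

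The count of called members depended on which library was in the fit. It was 1, 2 and 1 without Stag2KO replicates 1, 2 and 3, and 9, 5 and 2 without Stag2WT replicates 1, 2 and 3. DESeq2 called 9 members lower, and so did edgeR without robust dispersion estimates, Hsp90ab1 being the member not called in both. Over all tested genes, the 6 alternatives that kept every library called 2552 to 3887 in either direction, against 3333 in the main fit. With a library left out, 1967 to 2548 were called. These totals pool both directions, and the share of lower calls in each single alternative fit is not given, here or for the lists below. The fold changes of all 10 members stayed below 0 in every alternative and with every single library left out.

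**Figure D2:**
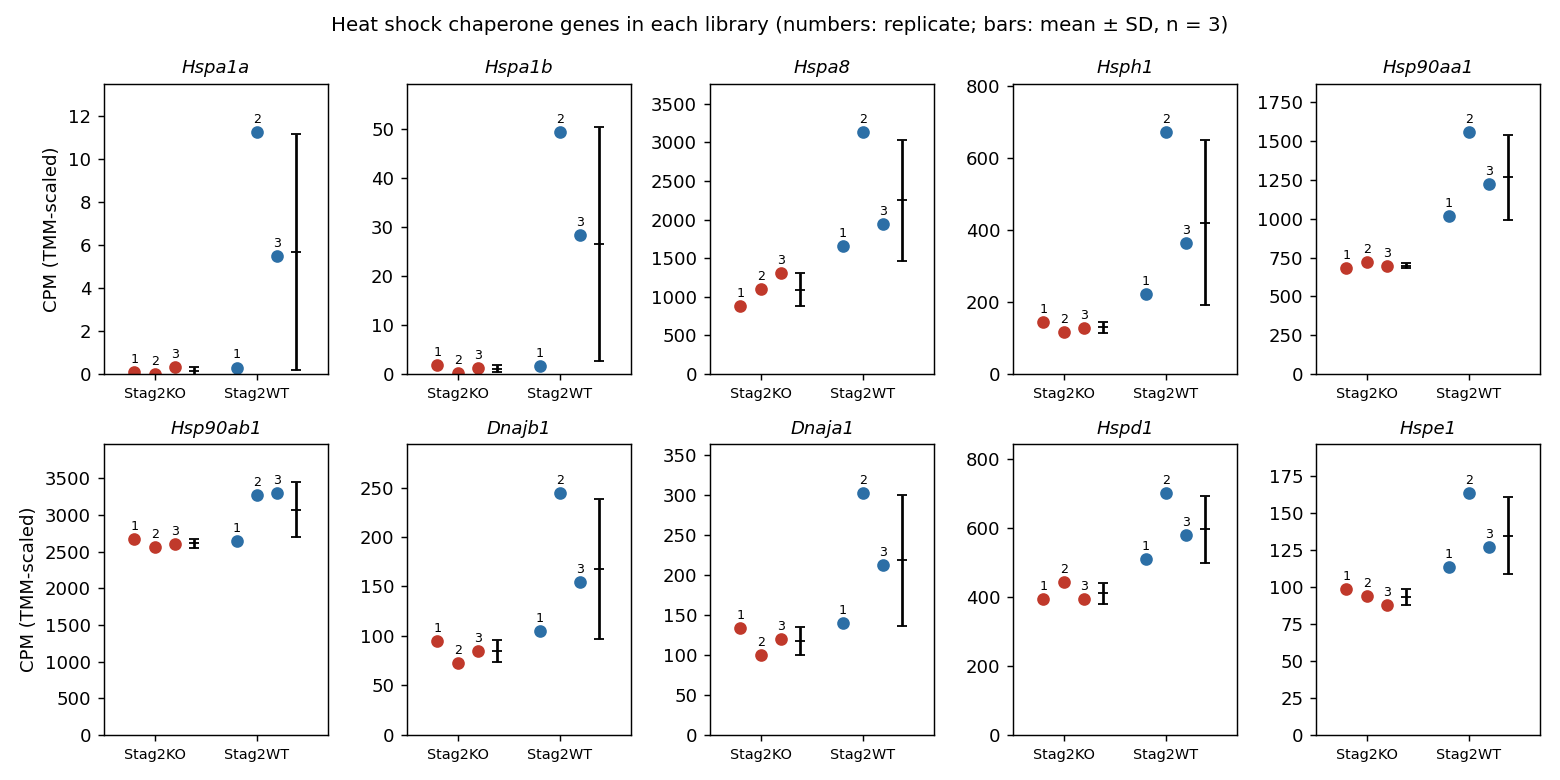
CPM on TMM-scaled library sizes (y axis, from 0) of the 10 members in each library; red points are Stag2KO, blue points Stag2WT, numbers give the replicate, and bars show the mean ± SD with n = 3. Stag2WT replicates 2 and 3 stand above the other 4 libraries in each panel, while Stag2WT replicate 1 lies above all Stag2KO libraries for Hspa8, at 1661 CPM, and inside their range for Hspa1a, at 0.306 CPM.

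The inducible HSP70 genes had the widest differences and the widest spread. Hspa1b held 1.88, 0.3 and 1.23 CPM in Stag2KO replicates 1, 2 and 3, against 1.72, 49.3 and 28.2 CPM in Stag2WT replicates 1, 2 and 3. Stag2WT replicate 1 lay inside the Stag2KO range, and Stag2WT replicates 2 and 3 stood 28.6 and 16.4 times above it. Hspa1a held 3, 0 and 13 reads in Stag2KO, or 0.103, 0 and 0.341 CPM, and 11, 394 and 187 reads in Stag2WT, or 0.306, 11.3 and 5.47 CPM. The 0 reads in Stag2KO replicate 2 allow up to 0.0817 CPM, counting error alone. As for Hspa1b, the groups overlapped through Stag2WT replicate 1.

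The fitted log2 fold changes were -4.56 for Hspa1b (SE 1.44, adjusted p = 0.0902) and -5.19 for Hspa1a (SE 1.65, adjusted p = 0.0886), and neither passed. Both were called without Stag2WT replicate 1 (adjusted p = 0.0196 and 0.0158), by DESeq2 (0.00235 and 0.0122) and without robust dispersion (0.0294 and 0.0323). Their fold changes thus compare low Stag2KO libraries with a Stag2WT group whose own libraries differ by 28.6 times for Hspa1b and 36.8 times for Hspa1a. These 2 genes are near-identical: 58.8% of the 50-base windows of the Hspa1a transcript also occur in Hspa1b, and 62.3% of those of Hspa1b occur in Hspa1a (GENCODE M21). Exons of Hspa1a, but not of Hspa1b, also overlap annotated exons of Gm20481, and other annotated genes share 66.3% of the windows of Hspa1a. Reads aligned to more than 1 place were not assigned to genes, so the levels of Hspa1a and Hspa1b are underestimates and their split is uncertain. Summed, they held 1.99, 0.3 and 1.57 CPM in Stag2KO and 2.03, 60.5 and 33.7 CPM in Stag2WT (log2 fold change -4.66, SE 1.46, adjusted p = 0.0893).

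Hspa8, the constitutive HSP70 that also uncoats clathrin vesicles, fell to 1094 ± 209 CPM in Stag2KO, against 2247 ± 779 CPM in Stag2WT (SD, n = 3 each). Single libraries held 884, 1095 and 1302 CPM in Stag2KO, and 1661, 3132 and 1948 CPM in Stag2WT. The groups did not overlap, with 1302 CPM as the highest Stag2KO and 1661 CPM as the lowest Stag2WT value (log2 fold change -1.04, SE 0.27, adjusted p = 0.0387). EdgeR no longer called it without Stag2KO replicate 1 (adjusted p = 0.0931), 2 (0.111) or 3 (0.0576), without Stag2WT replicate 3 (0.0623) and with no filter beyond 1 read (0.106).

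Hsph1, an HSP110 protein that exchanges nucleotide on HSP70, held 144, 116 and 127 CPM in Stag2KO, against 223, 671 and 364 CPM in Stag2WT. No library of one group reached the other, but the Stag2WT values ranged over 3.01 times and the Stag2KO values over 1.24 times. The log2 fold change of -1.70 (SE 0.44) had an adjusted p of 0.0544 and was not called by edgeR. It was called without Stag2WT replicate 1 (adjusted p = 0.0151) or replicate 2 (0.0424), by DESeq2 (0.0021), by limma-voom (0.0201), without robust dispersion (0.0167) and when genes had to reach 5 CPM in 3 or more libraries (0.0423). None of its 50-base windows occurs in another annotated gene.

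The J-domain genes Dnajb1 and Dnaja1 encode partners that hand clients to HSP70 and start its ATP cycle. Dnajb1, itself induced by heat, held 95.2, 73.1 and 84.8 CPM in Stag2KO, against 105, 245 and 154 CPM in Stag2WT. Dnaja1 held 133, 99.5 and 119 CPM in Stag2KO, against 139, 302 and 213 CPM in Stag2WT. In both, the groups were separate by a narrow margin, since Stag2WT replicate 1 was 1.24 times the Stag2KO mean for Dnajb1 and 1.19 times for Dnaja1. Neither was called: the log2 fold change was -0.99 for Dnajb1 (SE 0.33, adjusted p = 0.0952) and -0.90 for Dnaja1 (SE 0.30, adjusted p = 0.0942). Without Stag2WT replicate 1 both were called (adjusted p = 0.0225 for Dnajb1 and 0.0149 for Dnaja1), as they were by DESeq2 (0.0304 and 0.0315) and without robust dispersion (0.0407 and 0.0437). Other annotated genes share 30.6% of the 50-base windows of Dnaja1. Exons of Dnaja1 overlap annotated exons of Smu1 and Gm6297, and the strand setting of the counting is not known.

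The cytosolic HSP90 pair split. Hsp90aa1, the inducible isoform, held 682, 719 and 697 CPM in Stag2KO, against 1018, 1559 and 1227 CPM in Stag2WT. The lowest Stag2WT library was well clear of the highest Stag2KO library, and the mean fell to 699 ± 18.6 CPM in Stag2KO, against 1268 ± 273 CPM in Stag2WT (log2 fold change -0.86, SE 0.14, adjusted p = 0.00624). It was the one member called with each of the 6 libraries left out in turn (adjusted p 0.00335 to 0.0252) and in all 6 other alternatives. Hsp90ab1, the constitutive isoform, held 2668, 2558 and 2606 CPM in Stag2KO, against 2638, 3272 and 3301 CPM in Stag2WT. Stag2WT replicate 1 lay inside the Stag2KO range, and the log2 fold change of -0.23 (95% interval -0.48 to 0.01, adjusted p = 0.151) was not called in any fit. The difference between the 2 fold changes was not tested. Other annotated genes share 65.6% of the 50-base windows of Hsp90aa1 and 4.49% of those of Hsp90ab1.

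Hspd1 and Hspe1 encode the mitochondrial chaperonin, HSP60, and its lid, HSP10, and share the promoter region shown above. Hspd1 held 393, 444 and 393 CPM in Stag2KO, against 510.3, 702 and 578 CPM in Stag2WT. Hspe1 held 98.6, 93.8 and 87.5 CPM in Stag2KO, against 114, 164 and 127 CPM in Stag2WT. Both groups were separate for both genes, and the order of the Stag2WT libraries was the same. The log2 fold changes were -0.54 for Hspd1 (SE 0.12, adjusted p = 0.0165) and -0.53 for Hspe1 (SE 0.13, adjusted p = 0.0286). Hspd1 lost its call without Stag2KO replicate 1 (adjusted p = 0.0548) or 3 (0.0521). Hspe1 lost its own without Stag2KO replicate 1 (0.0562), 2 (0.0821) or 3 (0.0822) or Stag2WT replicate 3 (0.0545). Their annotated exons overlap on opposite strands, and 44.8% of the 50-base windows of each occur in other annotated genes.

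Per kilobase of coding sequence, the levels ran from 1200.0 CPM in Stag2KO and 1410.0 CPM in Stag2WT for Hsp90ab1 to 0.0769 CPM in Stag2KO and 2.95 CPM in Stag2WT for Hspa1a. Hspa8 followed Hsp90ab1 on this scale (Stag2KO 564 CPM, Stag2WT 1160.0 CPM), and Hsp90aa1 came next (Stag2KO 318 CPM, Stag2WT 577 CPM). Reads aligned to several places are missing from these levels, and 74.8% of the 50-base windows of Hspa8 occur in other annotated genes, the highest share among the members, against 4.49% for Hsp90ab1.

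**Figure D3:**
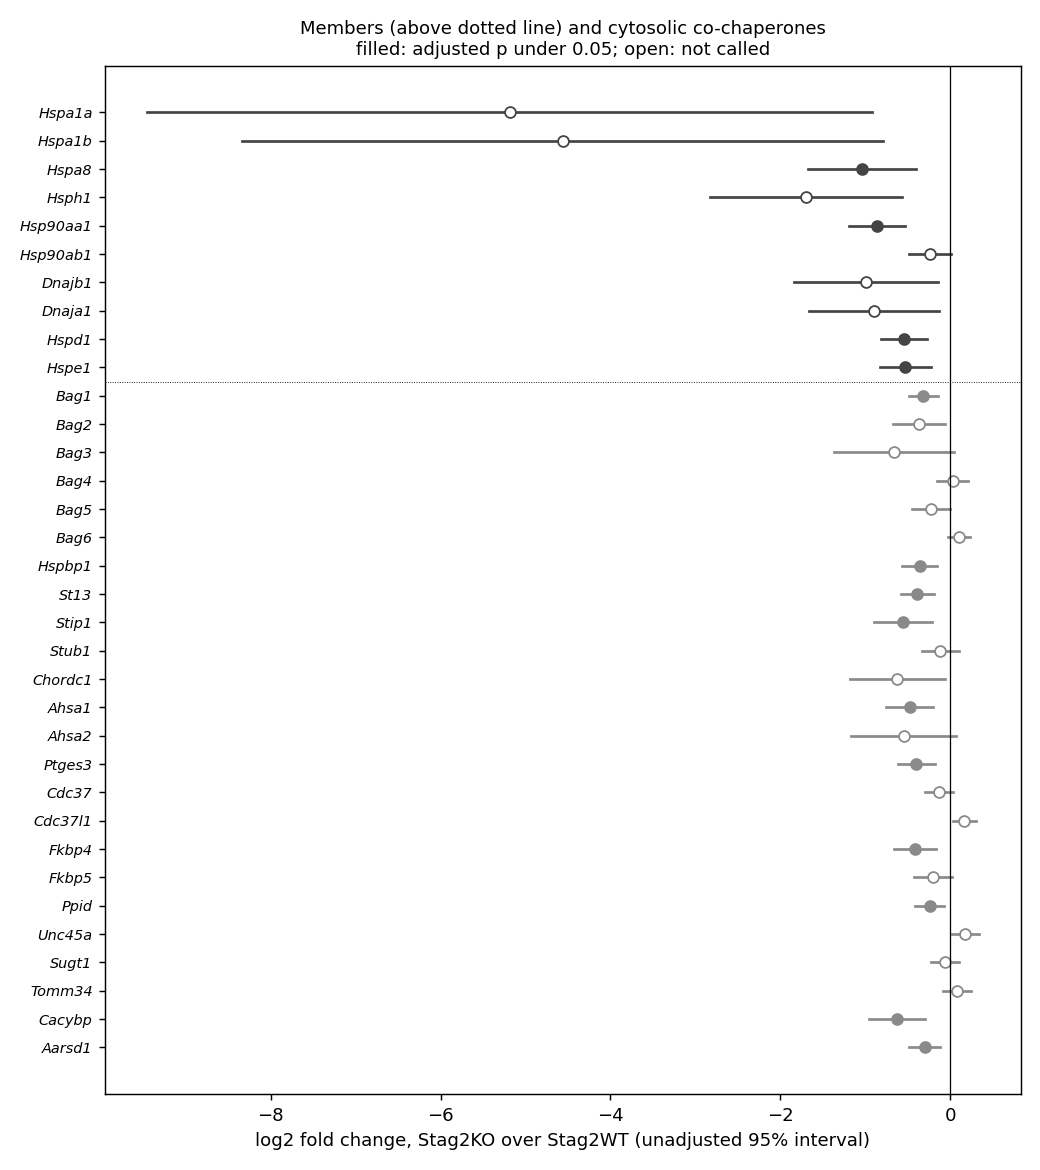
Log2 fold changes, Stag2KO over Stag2WT (x axis), of the 10 members above the dotted line and of 24 cytosolic co-chaperones below it, with unadjusted 95% intervals; filled points have an adjusted p under 0.05. All 10 members lie left of 0, with 4 filled, and 10 of the co-chaperones are filled.

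The members moved together across the Stag2WT libraries as well as between the groups. For 9 of 10 members the Stag2WT libraries were ordered replicate 2, then 3, then 1, an order seen in 17.3% of all tested genes. Hsp90ab1 was the exception, with replicate 3 just above replicate 2. Among the tested genes of lists described below, 66.7% of cytosolic co-chaperones and 60.9% of the endoplasmic reticulum list had this order. So did 50% of other HSP70 and HSP110 genes, 43.8% of the mitochondrial list and 38.9% of immediate early genes. The shares were 20.7% for other J-domain genes, 7.69% for the stress list and 0% for small heat shock proteins. Stag2WT replicate 1 stood above all 3 Stag2KO libraries for 7 members, an arrangement found in 34.2% of all genes. Hspa1a, Hspa1b and Hsp90ab1 were the other three. Stag2WT replicate 2 exceeded Stag2WT replicate 1 by very different factors, 36.8 times for Hspa1a, 3.01 times for Hsph1, 1.53 times for Hsp90aa1 and 1.24 times for Hsp90ab1.

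Immediate early genes, which react within minutes to handling and other stimuli, shared part of this arrangement, as did several chaperone lists. Of 18 tested, 2 were lower in Stag2KO, a share near the 10.5% of all genes, and 0 were higher by edgeR, DESeq2 or limma-voom or at an unadjusted p under 0.05. Nr4a1, an orphan nuclear receptor gene, fell by 1.48 in log2 terms (adjusted p = 0.0017) and the AP-1 gene Jund by 0.63 (adjusted p = 0.0109). Neither of these had the Stag2WT order of the members. In Stag2WT replicates 1, 2 and 3, Nr4a1 held 22.9, 17.7 and 19.3 CPM and Jund 24.6, 22.3 and 19.3 CPM, with replicate 1 the highest for each. The list's count was 4 without Stag2WT replicate 1, with Fos and Egr1 added, and 6 by DESeq2, with Klf2 and Btg2 added to those. The share of all genes called lower in those fits is not given. Klf2 (-0.58, adjusted p = 0.0646) and Btg2 (-0.35, adjusted p = 0.0658) were not called by edgeR. Fos, picked after its values were seen, held 84, 117 and 221 reads in Stag2KO, against 283, 986 and 381 reads in Stag2WT. Egr1, picked likewise, held 74, 110 and 158 reads in Stag2KO, against 168, 928 and 276 reads in Stag2WT. Both had the Stag2WT order of the members, which 7 of the 18 genes and 17.3% of all tested genes showed, and edgeR called neither with all libraries (adjusted p = 0.0668 for Fos and 0.111 for Egr1). Their part in the chaperone values was not tested.

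The transcript of the heat shock factor Hsf1 was not called. It averaged 60.3 ± 3.83 CPM in Stag2KO, against 61.5 ± 3.05 CPM in Stag2WT (SD, n = 3 each; log2 fold change -0.03, 95% interval -0.19 to 0.14, adjusted p = 0.806). Of 13 tested genes of the heat shock factor and stress list 1 was lower and 0 higher, beside 10.5% lower and 10.7% higher among all tested genes. At an unadjusted p under 0.05, 1 was higher, and DESeq2 and limma-voom called 0 higher. The gene called lower was Hmox1, the heme-degrading enzyme gene that macrophages also use (log2 fold change -1.29, adjusted p = 0.0213). Hmox1 was not called without Stag2KO replicate 3 (adjusted p = 0.0788), without Stag2WT replicate 1 (0.0531) or 2 (0.0771) and with no filter beyond 1 read (0.0627), and the list's count was then 0 except without Stag2KO replicate 3, where Ier5 was the 1 gene called. DESeq2 called 2, Hmox1 and Ier5. The polyubiquitin gene Ubb (-0.16, adjusted p = 0.111) and the early response gene Ier5 (-0.37, adjusted p = 0.0869) were not called by edgeR with all libraries.

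Cytosolic co-chaperones are the proteins that work on HSP70 and HSP90. Of their 24 tested genes 10 were lower and 0 higher, beside 10.5% lower and 10.7% higher among all tested genes. At an unadjusted p under 0.05, 2 were higher, and DESeq2 and limma-voom called 0 higher. Their median log2 fold change was -0.31. St13, which stabilises the client-bound HSP70, fell to 171 ± 5.35 CPM in Stag2KO, against 224 ± 25.2 CPM in Stag2WT (-0.39 as log2 fold change, adjusted p = 0.0165). The exchange factor Bag1 (-0.32, adjusted p = 0.0199), the HSP90 co-chaperone Ptges3 (-0.40, adjusted p = 0.0223) and Cacybp (-0.63, adjusted p = 0.022) fell as well. Stip1, the adaptor that links HSP70 to HSP90, fell to 215 ± 12.7 CPM in Stag2KO, against 315.5 ± 68.0 CPM in Stag2WT (-0.55, adjusted p = 0.0358). The heat-inducible exchange factor Bag3 had the order of the members in Stag2WT and was not called (-0.66, adjusted p = 0.156).

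The co-chaperone count too rested on single libraries. It was 3, 1 and 1 without Stag2KO replicates 1, 2 and 3, and 13, 6 and 3 without Stag2WT replicates 1, 2 and 3. St13 dropped out without Stag2KO replicate 1 (adjusted p = 0.05004) or 2 (0.0551), and the call of Bag1 without Stag2KO replicate 1 (0.0648) or 3 (0.0539). That of Ptges3 was lost without Stag2KO replicate 2 (0.0651) or 3 (0.0696) or Stag2WT replicate 3 (0.0533). Those of Cacybp and Stip1 were lost without Stag2KO replicate 1 (0.0636 and 0.0654), 2 (0.0691 and 0.108) or 3 (0.0618 and 0.0973) or Stag2WT replicate 3 (0.0513 and 0.0666), and that of Stip1 with no filter beyond 1 read (0.0534). Bag3 was called without Stag2WT replicate 1 (adjusted p = 0.0112) and by DESeq2 (0.0275).

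**Figure D4:**
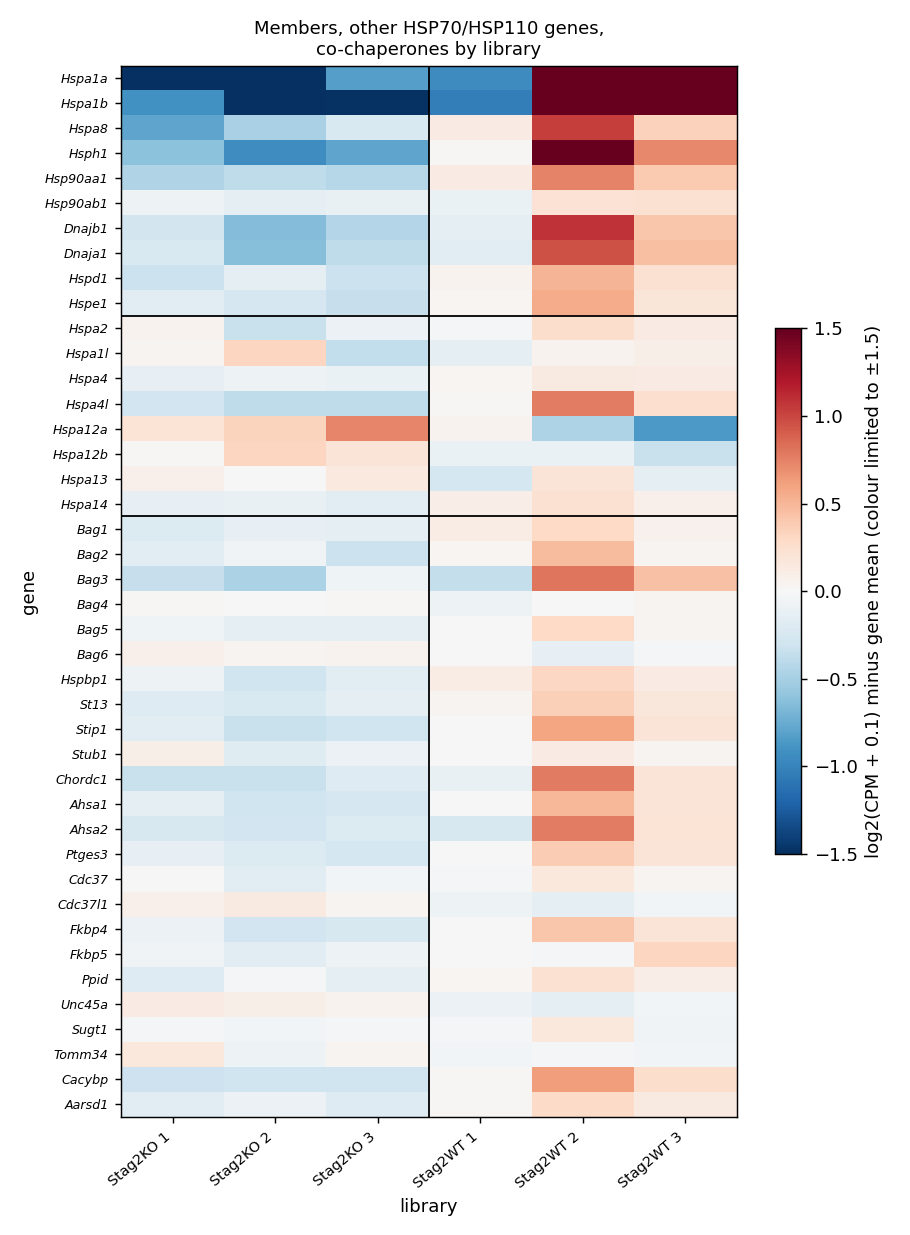
Log2(CPM + 0.1) of each gene minus its mean over the 6 libraries, by colour (limited to ±1.5), for the 10 members (top block), 8 other HSP70 and HSP110 genes (middle) and 24 co-chaperones (bottom); columns are libraries, Stag2KO left of the line. Stag2WT replicate 2 is the highest library for 9 of 10 members and for 18 of 24 co-chaperones, beside 26.9% of all tested genes.

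Other HSP70 and HSP110 genes were mixed, with 2 of 8 lower by edgeR and 0 higher by edgeR, DESeq2 or limma-voom. At an unadjusted p under 0.05, 1 was higher. Among all tested genes, edgeR called 10.5% lower and 10.7% higher. Hspa14, a ribosome-associated HSP70 relative, fell by 0.27 in log2 terms (adjusted p = 0.0188). Hspa4l, an HSP110 relative, fell by 0.73 (adjusted p = 0.0388), while its paralog Hspa4 (-0.20, adjusted p = 0.0535) and Hspa12a (0.94, adjusted p = 0.078) were not called. Hspa14 was not called without Stag2KO replicate 1 (adjusted p = 0.0537) or 3 (0.0733). Hspa4l was not called without Stag2KO replicate 1 (0.0904), 2 (0.114) or 3 (0.115), without Stag2WT replicate 3 (0.0684) or with no filter beyond 1 read (0.0964).

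J-domain genes outside the members went both ways, with 4 of 29 lower, 2 higher and 23 not called, beside 10.5% lower and 10.7% higher among all genes. DESeq2 called 6 lower and 3 higher, and limma-voom 3 lower and 2 higher. Dnajc6, encoding auxilin, the HSP70 partner in clathrin uncoating, rose to 85.3 ± 4.30 CPM in Stag2KO, against 45.3 ± 3.57 CPM in Stag2WT (0.91 as log2 fold change, adjusted p = 0.00057). It was called in every alternative run. Dnajc1, which the naming rule does not cover and whose values were known when it was picked, was the other higher one (0.28, adjusted p = 0.0478). Dnajc9, a histone chaperone, fell by 0.42 in log2 terms (adjusted p = 0.0154), a call lost without Stag2KO replicate 3 (0.0506). Dnajb2 (-0.54, adjusted p = 0.0295) and Dnajc11 (-0.24, adjusted p = 0.0422) fell too. Dnaja4 was the other lower one, and held 6.48, 5.58 and 4.87 CPM in Stag2KO, against 8.51, 19.5 and 9.98 CPM in Stag2WT. It is named only for a profile close to the members', which is low in Stag2KO. Its log2 fold change of -1.17 and its call therefore describe that choice. EdgeR no longer called Dnaja4 without Stag2KO replicate 1, 2 or 3, without Stag2WT replicate 3 or with no filter beyond 1 read, nor did limma-voom. The count of lower genes was 1, 2 and 0 without Stag2KO replicates 1, 2 and 3, and 4, 2 and 2 without Stag2WT replicates 1, 2 and 3. Dnajb2 lost its call without Stag2KO replicate 1 (0.0805), 2 (0.0581) or 3 (0.0866) or Stag2WT replicate 2 (0.077), and that of Dnajc11 without any one library other than Stag2KO replicate 2 (0.0600 to 0.144).

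Small heat shock proteins were scarce, and 6 of 10 genes did not reach the level tested. Of the 4 tested, 0 were called in either direction by edgeR, DESeq2 or limma-voom, and 1 was lower at an unadjusted p under 0.05. The gene lower at the unadjusted level was Hspb11 (log2 fold change -0.48, adjusted p = 0.0816). Hspb6 (-0.02), Cryab (-0.07) and Hspb9 (0.38) had adjusted p of 0.503 or more. Hspb1, the most widely induced small chaperone, was below the level tested with all 6 libraries, and held 4, 1 and 8 reads in Stag2KO, against 7, 30 and 15 reads in Stag2WT. Without Stag2WT replicate 1, Hspb1 passed the expression filter and was the 1 gene of the list called lower. At these depths the groups overlapped, with Stag2WT replicate 2 again the highest.

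Genes of the endoplasmic reticulum and mitochondrial lists were mostly not called. The first list also holds transcription factors of the reticulum's stress response, and the second holds proteases. In the reticulum list 2 of 23 were lower by edgeR, near the 10.5% of all tested genes. None was higher by edgeR, DESeq2, limma-voom or an unadjusted p under 0.05, while edgeR called 10.7% of all genes higher. The lectin chaperone Canx (log2 fold change -0.28, adjusted p = 0.0388) and the J-domain protein Dnajb11 (-0.29, adjusted p = 0.0343) fell. Hspa5, the HSP70 of the reticulum, held 859 ± 53.7 CPM in Stag2KO and 1112 ± 268 CPM in Stag2WT (-0.37, adjusted p = 0.139), and Pdia4 (-0.33, adjusted p = 0.0549) and Herpud1 (-0.47, adjusted p = 0.0561) were not called either. Without Stag2WT replicate 1 the list's count was 8, with Hspa5 among them (adjusted p = 0.0355), and DESeq2 called 7. It was 0 without any 1 of the 3 Stag2KO libraries or Stag2WT replicate 3, and 1 without Stag2WT replicate 2. Over all tested genes, fits with a library left out called 1967 to 2548 in either direction. The share of all genes called lower in each of these fits, or by DESeq2, is not given. Canx and Dnajb11 kept their call without Stag2WT replicate 1 and lost it without each other library (adjusted p 0.0584 to 0.106).

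In the mitochondrial list 2 of 16 were lower by edgeR, near the 10.5% of all tested genes. None was higher by edgeR, DESeq2 or limma-voom, and 1 was higher at an unadjusted p under 0.05. The protease gene Htra2 (log2 fold change -0.42, adjusted p = 0.00896) and the J-domain gene Dnaja3 (-0.36, adjusted p = 0.018) fell. Dnaja3 lost its call without Stag2KO replicate 2 (0.0533) or 3 (0.058), and that of Htra2 held with each library left out. Hspa9, the mitochondrial HSP70 that feeds the chaperonin, held 424 ± 22.8 CPM in Stag2KO and 483 ± 37.1 CPM in Stag2WT (-0.19, adjusted p = 0.126). Dnajc15 (-0.24, adjusted p = 0.0562) and Grpel2 (-0.22, adjusted p = 0.0838) were not called. Over the 7 chaperone lists together, 21 of 117 tested genes were lower and 2 higher, against 10.5% and 10.7% of all genes. Not all of these genes encode chaperones. Their median log2 fold change was -0.15. The lower count was 7, 6 and 3 without Stag2KO replicates 1, 2 and 3, and 30, 13 and 9 without Stag2WT replicates 1, 2 and 3.

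Outside the members, and with a floor of 5 CPM on the mean, 5 genes were named for a profile closest to the members' mean, by the root mean square difference of centred log2 CPM over the 6 libraries. They were Gm16842 (0.32), Cebpb (0.37), Dnaja4 (0.38), Ighv8-12 (0.38) and Tmem120b (0.39). Hspa1a and Hspa1b weigh heavily in that mean profile, from which they themselves differ by 1.84 and 1.66. These 5 were picked for a profile that is low in Stag2KO, so their fold changes describe that choice and are given without a p-value. The log2 fold changes were -1.25 for Cebpb, a myeloid transcription factor gene, -1.23 for Tmem120b, -1.09 for Gm16842, -1.31 for the antibody segment gene Ighv8-12 and -1.17 for Dnaja4, the J-domain gene among them.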

How the data were processed

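The 6 libraries are bulk RNA of mouse marrow without lineage-marked cells. Per the labels' protocols, RNA was extracted with TRIzol, and kits are named for other cell populations only. Library kit, strand setting and annotation: not given in the sources used here. What the authors deposited is 1 table of raw counts by gene symbol, without normalization. Tools named in the submitters' processing notes are HTSeq 0.6.1, STAR 2.4 and DESeq2, and the build is mm9. Rows for reads without a gene stayed out of the library sizes: 8.81% to 12.8% of a table fell in no gene, 2.02% to 2.2% was ambiguous and 23.4% to 28.6% aligned to more than 1 place.

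The test was edgeR 4.0.16's quasi-likelihood test (R 4.3.3) after TMM and filterByExpr, with robust dispersion and a genotype term alone, adjusted by Benjamini-Hochberg over 15708 genes, called at an adjusted p under 0.05. A standard error is the log2 fold change divided by the square root of F, and intervals are unadjusted 95% intervals. It was rerun with DESeq2 1.42.0, with limma-voom (limma 3.58.1), with size factors by median ratio, with genes of 1 read or more kept, with only genes that reach 5 CPM in 3 or more libraries, without robust dispersion, and leaving out each library. The fits were tested on simulated data. Replicate numbers follow accession order and only name samples; within a group, libraries differed beyond counting noise (chi-square per degree of freedom 21.0 to 46.9).

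The members and lists were chosen with earlier results of these data known. The naming rule took all members, Stag2, up to 4 tested genes of each list with the smallest p, Hsf1, Hspa5, Hspa9, Hspb1, Bag3 and Stip1 whatever their result, and the 5 genes of closest profile. Fos, Egr1 and Dnajc1 fall outside it. A gene that the rule covers is not reported here. Promoter sequences are RefSeq's (GRCm38.p6), and coding lengths, overlaps and shared windows come from GENCODE M21 (GRCm38), another build than the counts, so gene coordinates are not given. The floor for 0 reads covers counting error only, while the intervals of fold changes rest on the spread between samples.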

Additional observations from a re-analysis of the deposited data

How the results depend on the processing

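The direction of all 10 members held in every alternative, while the number called did not. DESeq2 called 9 members and 35 genes of the other chaperone lists lower, and edgeR without robust dispersion called 9 members. The 6 alternatives that kept every library called 2552 to 3887 of all genes in either direction. Summed Hspa1a and Hspa1b passed by DESeq2 (log2 fold change -4.65, adjusted p = 0.00222) and without robust dispersion (-4.66, 0.0288). With each library left out in turn, 1 to 9 members were called, 3 to 30 genes of the other lists, and 1967 to 2548 of all genes, against 3333 with all libraries. Over those fits the summed Hspa1a and Hspa1b reads gave -5.22 to -3.82 (adjusted p 0.0234 to 0.246), the summed CPM of the members a log2 ratio of -0.78 to -0.45, and the percentage of reads outside annotated genes a difference of 1.9 to 2.89 percentage points. Near 0, the fold changes of Hsf1 (-0.080 to 0.011), Hspb6 (-0.11 to 0.068) and Cryab (-0.86 to 0.34) changed sign with a library left out. Of the other values for single named genes, 516 kept their side of the threshold, 68 lost it and 39 gained it. Fits without a library have fewer samples. The cause of the gap between robust and non-robust fits was not tested. The strict filter removes Hspa1a and Hspa1b, so they have no value there. Depth limits Hspa1a and Hspb1, where single libraries held 0 to 13 reads in Stag2KO. No paired analysis was possible because the labels give no numbers shared between the groups.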
